A study of Mus musculus with 24 samples.

Results

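In the mouse small intestine, CD31+ Rspo3+ stromal cells were compared with CD31- Rspo3+ stromal cells by RNA sequencing, with 3 libraries each. These 6 libraries were those whose names in the count table carry the small intestine, a CD31 sign and a positive Rspo3 sign, out of 24 libraries in all. The other 18 libraries were the reporter-negative fractions of the small intestine, CD31+ Rspo3- and CD31- Rspo3-, and the same 4 fractions of the colon. All mice were on a C57Bl6 background and 8 to 12 weeks old, and all cells were negative for Epcam, an epithelial surface protein, and for CD45, a leukocyte surface protein. A GFP transgene reported Rspo3 in every group, so the reporter-negative cells came from animals that carry it too. The construction of the transgene and the number of mice behind each library are not given in the labels. Whether each library had its own mice is not stated either. The p-values therefore reflect the spread among libraries within groups, pooled over all 24 libraries, part of which may be technical.

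CD31 is the endothelial adhesion protein encoded by Pecam1. Rspo3 encodes R-spondin 3, a secreted protein that binds Lgr receptors and the ubiquitin ligases Znrf3 and Rnf43, keeps Wnt receptors on the cell surface and so strengthens Wnt signaling in intestinal stem cells. The stroma around the crypts holds lymphatic vessels, made of endothelial cells that carry Prox1, and several fibroblast kinds. Among these, fibroblasts with little Pdgfra make Gremlin 1 (Grem1), an extracellular inhibitor of BMP proteins, which otherwise favour epithelial differentiation.

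Total estimated counts ran from 8462041 to 21302297 in CD31+ Rspo3+ libraries and from 22442246 to 29214487 in CD31- Rspo3+ libraries. Within each group, log2 CPM of library pairs correlated at 0.973 to 0.981, and no pair was alike within counting noise (chi-square per degree of freedom at least 30.9). The 20 genes with the most counts took 12.9 to 14.1% of the counts in CD31+ Rspo3+ and 19.5 to 20.7% in CD31- Rspo3+ libraries. Levels are in CPM, counts scaled to library size with TMM factors, given as library 1, 2 and 3 or as mean ± SD (n = 3). They compare groups for 1 gene. Levels of different genes are compared only in TPM, which is scaled per length. Fold changes are log2 of CD31+ Rspo3+ over CD31- Rspo3+ with their SE, and a gene passed at an adjusted p under 0.05 in edgeR's quasi-likelihood test over all 19050 genes tested.

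Pecam1, the gene behind the CD31 gate, differed between the fractions, and Rspo3, the gene behind the reporter gate, was high in both. Pecam1 (ENSMUSG00000020717, chromosome 11, 106654217 to 106750628 on GRCm38) had 435, 481 and 347 CPM in CD31+ Rspo3+ cells, against 11.3, 19.6 and 13.7 CPM in CD31- Rspo3+ cells. Its log2 fold change was 4.82 ± 0.37 (adjusted p = 3.12e-09). Rspo3 (ENSMUSG00000019880, chromosome 10, 29452416 to 29535867) had 449.9, 303 and 401 CPM in CD31+ Rspo3+ cells and 327, 273 and 332 CPM in CD31- Rspo3+ cells, and the ranges overlapped. The log2 fold change of Rspo3 was 0.31 ± 0.22 with a 95% interval of -0.14 to 0.76 (adjusted p = 0.299). Reporter-negative cells held less Rspo3, with 20.3 ± 4.51 CPM in CD31+ Rspo3- cells and 15.3 ± 1.94 CPM in CD31- Rspo3- cells. In TPM, Rspo3 stood at 194 ± 37.1 in CD31+ Rspo3+ and 137 ± 13.6 in CD31- Rspo3+ cells. Exons of Gm48159 on the opposite strand overlap those of Rspo3, and SMART-Seq v4 libraries do not mark strand, so their reads cannot be told apart.

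**Figure D1:**
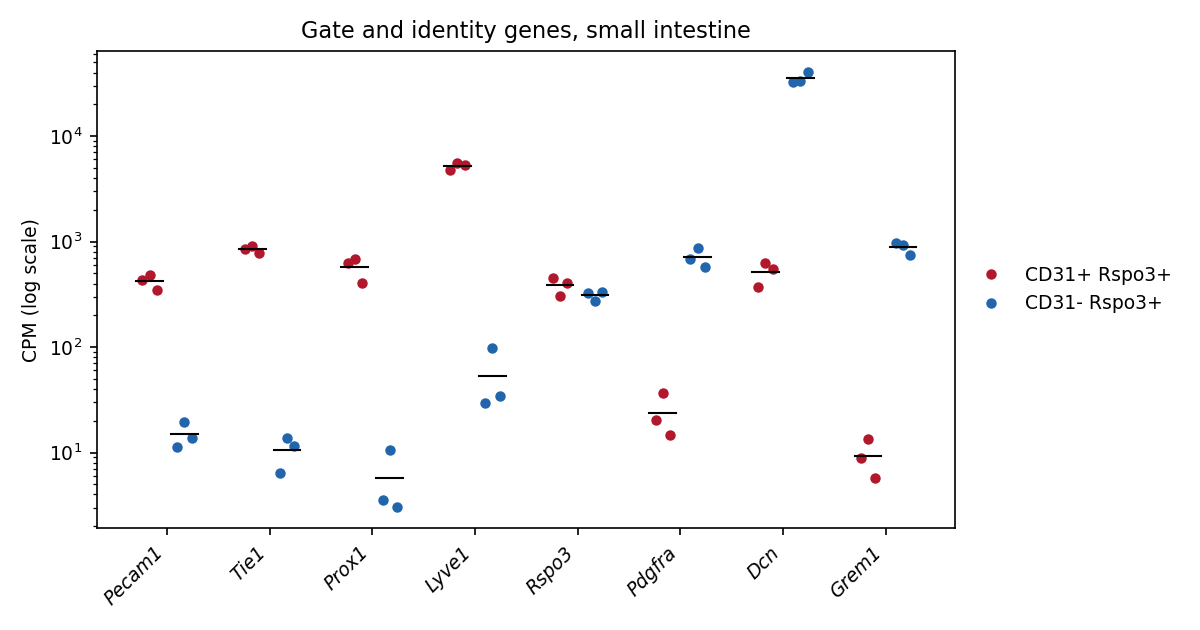
CPM (log scale) of 8 genes in the 3 CD31+ Rspo3+ libraries (red) and the 3 CD31- Rspo3+ libraries (blue) of the small intestine, with points for libraries and bars for means. The endothelial genes Pecam1, Tie1, Prox1 and Lyve1 lie higher in every CD31+ Rspo3+ library, the fibroblast genes Pdgfra, Dcn and Grem1 lower, and only Rspo3 has points at overlapping levels. The choice of genes to plot was made with their values known.

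The sequence just upstream of the start is shown for 4 genes that stand for the contrast, from RefSeq (GRCm38.p6). They are Tie1, an endothelial receptor, Wnt2, a Wnt ligand gene higher in CD31+ Rspo3+ cells, Col1a2, a chain of collagen I, and Grem1. Each line holds the 200 bases before the RefSeq start, 5′ to 3′ on the strand of the gene, and capitals mark GGAAG or its complement CTTCC, the core letters bound by ETS factors.
Tie1, chr4:118489850-118490049, minus strand: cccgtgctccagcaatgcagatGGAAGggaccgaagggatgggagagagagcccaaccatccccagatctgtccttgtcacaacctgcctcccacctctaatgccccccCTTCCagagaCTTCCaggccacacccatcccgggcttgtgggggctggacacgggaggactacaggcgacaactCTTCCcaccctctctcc
Wnt2, chr6:18030446-18030645, minus strand: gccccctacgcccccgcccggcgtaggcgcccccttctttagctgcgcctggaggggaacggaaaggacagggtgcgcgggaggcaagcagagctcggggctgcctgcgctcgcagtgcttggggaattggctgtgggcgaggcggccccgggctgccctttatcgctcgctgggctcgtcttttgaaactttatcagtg
Col1a2, chr6:4505418-4505617, plus strand: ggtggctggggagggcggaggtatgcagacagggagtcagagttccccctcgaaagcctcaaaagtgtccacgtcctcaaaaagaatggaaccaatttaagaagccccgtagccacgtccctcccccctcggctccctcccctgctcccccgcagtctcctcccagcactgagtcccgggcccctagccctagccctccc
Grem1, chr2:113758649-113758848, minus strand: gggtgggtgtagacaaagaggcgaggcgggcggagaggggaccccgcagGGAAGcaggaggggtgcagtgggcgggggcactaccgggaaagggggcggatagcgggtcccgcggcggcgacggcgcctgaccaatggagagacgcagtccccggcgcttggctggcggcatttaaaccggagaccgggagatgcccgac
The stretch of Tie1 holds 4 matches, that of Grem1 1 match, and those of Wnt2 and Col1a2 hold 0.
In all, 3 motifs were searched on both strands in the 250 bases before the start. The shortest was GGAAG. A longer form of the ETS core, AGGAAG, contains it. The last, the core of TEAD factor sites, was GGAATG. The 4 genes, and GGAAG as the motif in capitals, were chosen after matches had been seen, because AGGAAG had 0 matches in all 4 stretches. GGAAG occurred in 7 of 10 promoters of pan-endothelial genes, 8 of 13 of lymphatic genes, 6 of 11 of pan-fibroblast genes and 11 of 14 of Pdgfra-low fibroblast genes, beside 67.8% of all 12767 promoters of tested genes. AGGAAG occurred in 5, 2, 5 and 4 of the same promoters in that order, beside 28.6% of all. GGAATG occurred in 1, 0, 2 and 1 of them, beside 11% of all. None of the 3 motifs was thus in every promoter of a list, and a match is a description of letters only.

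Between the 2 fractions, 6950 of 19050 genes passed (36.5%). Of these, 3211 (16.9% of those tested) were higher and 3739 (19.6%) lower in CD31+ Rspo3+ cells, and the median log2 fold change of all tested genes was -0.01. The excess of lower genes did not hold without CD31+ Rspo3+ library 2 (3410 higher and 3089 lower) or CD31- Rspo3+ library 3 (3358 higher and 3045 lower). At least 4-fold differences were seen for 1266 of the higher and 2021 of the lower genes. The libraries of the groups did not overlap for 9446 genes (49.6% of those tested). Counts of list members given below stand beside these shares of all genes. In bulk samples, fewer cells of a type and less RNA per cell cannot be told apart.

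Of the 10 genes with the largest rises, all but Pde2a lay at or below 0.875 CPM in every CD31- Rspo3+ library. Atp12a, the catalytic subunit of a proton and potassium pump, had 30.1, 18.8 and 16.6 CPM in CD31+ Rspo3+ cells and 0 counts in all 3 CD31- Rspo3+ libraries. Against a floor of 3 counts over that group this is at least 465-fold higher (adjusted p = 2.92e-05). Pde2a, a phosphodiesterase that breaks down cyclic nucleotides, had 549, 472 and 469 CPM in CD31+ Rspo3+ cells, against 2.83, 3.59 and 2.82 CPM in CD31- Rspo3+ cells (7.33 ± 0.78, adjusted p = 2.75e-07). These 10 genes, like the 10 largest falls, were chosen among genes whose libraries did not overlap, so their separation was set by the choice. Rbp7, a cellular retinol-binding protein, had 29.1, 21.7 and 34.7 CPM in CD31+ Rspo3+ cells and 0, 0.215 and 0.194 CPM in CD31- Rspo3+ cells (7.73 ± 0.66). The others were Otoa, Clca2, Fndc8, Psg22, Islr2, Wscd1 and Duoxa2, with log2 fold changes from 7.08 for Duoxa2 to 9.22 for Otoa. Otoa and Fndc8 rested on 2 and 3 counts in the CD31- Rspo3+ libraries, with ratios of 747 (95% counting interval 207 to 6165) and 244 (83.6 to 1184). Psg22 belongs to a family of near-identical genes, and the exons of Duoxa2, Islr2, Fndc8, Atp12a and Pde2a overlap those of other genes, so their counts are uncertain. More widely, exons of 60 of the 175 genes selected by the naming rule overlap those of another gene, among them Prox1, Dll4, Nos3, Jun, Timp3 and Ackr4, and their counts are uncertain to that extent. Some list members named below lie outside that rule and were picked with their values known.

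The largest falls held genes at or near 0 in CD31+ Rspo3+ cells. Slco1a4, an organic anion transporter, had 0 counts in all 3 CD31+ Rspo3+ libraries and 38.4, 47.4 and 53.7 CPM in CD31- Rspo3+ cells, at least 721-fold lower (adjusted p = 4.6e-05). Rtl3, a gene derived from a retrotransposon, and Itih2, a hyaluronan-binding plasma protein, were likewise at 0 counts in CD31+ Rspo3+ cells, at least 298-fold and at least 155-fold lower. Cldn10, a tight junction claudin, had 0.367, 1.23 and 0.237 CPM in CD31+ Rspo3+ cells, against 116, 130.3 and 154 CPM in CD31- Rspo3+ cells (-7.69 ± 0.85, adjusted p = 4.14e-07). Itgbl1, Dzip1 and Capn6 fell by 8.22, 8.14 and 7.87 on the log2 scale. Itgbl1 rested on 2 counts in the CD31+ Rspo3+ libraries, a ratio of 382 (95% counting interval 106 to 3152). Igkv8-28, an immunoglobulin light chain segment with close copies, had 1 count in the CD31+ Rspo3+ libraries, against 22, 5.63 and 37.9 CPM in CD31- Rspo3+ cells, a ratio of 1015 (95% counting interval 182 to 40101). Its adjusted p was 0.0128, and the call was lost in limma voom (0.0661) and without CD31+ Rspo3+ library 1 or 2.

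Of 20 pan-endothelial markers, 19 rose, 0 fell and 1, Sox17, did not pass (0.86 ± 0.61, adjusted p = 0.307). The list had a median log2 fold change of 5.89. It includes Pecam1, the gene behind the CD31 gate, whose rise was set by the sort. Tie1, a receptor of the angiopoietin pathway, had 848, 907 and 779 CPM in CD31+ Rspo3+ cells, against 6.38, 13.6 and 11.5 CPM in CD31- Rspo3+ cells (6.33 ± 0.42, adjusted p = 6.54e-10). Mmrn2, an endothelial matrix protein, averaged 832 ± 18.4 CPM in CD31+ Rspo3+ cells and 10.2 ± 4.51 CPM in CD31- Rspo3+ cells. Cldn5, the main claudin of endothelial tight junctions, averaged 604 ± 38.7 CPM in CD31+ Rspo3+ cells and 5.89 ± 1.99 CPM in CD31- Rspo3+ cells. For these genes the groups were separate in every library. The summed level of the 20 markers was 8367 to 8893 CPM in CD31+ Rspo3+ libraries and 410.2 to 474 CPM in CD31- Rspo3+ libraries. None of the 20 was at 0 in a CD31- Rspo3+ library, and whether endothelial cells in the CD31- gate gave these reads was not tested.

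All 16 lymphatic markers rose, with a median of 5.97. In the same CD31 comparison of Rspo3- cells of the small intestine, 14 rose and 1 fell, with a median of 7.57. The markers summed to 37057 to 41758 CPM in CD31+ Rspo3+ libraries and 4620.3 to 8317 CPM in CD31+ Rspo3- libraries. Prox1, the transcription factor that sets lymphatic identity, had 629, 677 and 404 CPM in CD31+ Rspo3+ cells and 3.55, 10.6 and 3.06 CPM in CD31- Rspo3+ cells (6.64 ± 0.47, adjusted p = 1.24e-09). Tbx1, a T-box factor of lymphatic growth, had 412, 322 and 354 CPM in CD31+ Rspo3+ cells, against 3.03, 4.29 and 2.04 CPM in CD31- Rspo3+ cells (6.86 ± 0.53, adjusted p = 3.6e-09). Ccl21a, a chemokine that draws dendritic cells and T cells towards lymphatic vessels, had 8915, 8534 and 10096 CPM in CD31+ Rspo3+ cells and 111, 274 and 200.4 CPM in CD31- Rspo3+ cells (5.56 ± 0.42, adjusted p = 3.33e-09). The 3 genes were high in every CD31+ Rspo3+ library, and CD31- Rspo3+ library 2 was the highest of its group for each. Ccl21a has near-identical copies in the mouse genome, so its count is uncertain. In TPM, Ccl21a reached 18844 ± 1085 in CD31+ Rspo3+ cells, above Lyve1, a hyaluronan receptor, at 3571 ± 427 and Prox1 at 123 ± 37.1. Pdpn, the podoplanin gene that fibroblasts also use, was the smallest rise (1.08 ± 0.35, adjusted p = 0.0182), and it did not pass without CD31+ Rspo3+ library 1.

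Of 10 lymphatic valve genes, 9 rose and 1, Fn1, did not pass, at 208 ± 75.5 CPM in CD31+ Rspo3+ cells and 416 ± 148 CPM in CD31- Rspo3+ cells (adjusted p = 0.0945). Gja1, which encodes a gap junction connexin, had 899, 940.4 and 962 CPM in CD31+ Rspo3+ cells, against 127, 167 and 169 CPM in CD31- Rspo3+ cells (2.60 ± 0.20, adjusted p = 2.77e-09). Gja4, for another connexin, had 73.3, 123 and 121 CPM in CD31+ Rspo3+ cells and 0.929, 1.88 and 2.38 CPM in CD31- Rspo3+ cells (5.95 ± 0.49, adjusted p = 8.72e-09). Gata2, a transcription factor needed for valves, had 42.4, 39.6 and 46.6 CPM in CD31+ Rspo3+ cells, against 0.485, 1.61 and 1.65 CPM in CD31- Rspo3+ cells (5.12 ± 0.42, adjusted p = 8.57e-09). All 3 separated the groups completely. Calls for Cldn11, Klf2 and Piezo1 were each lost in at least 1 alternative. The list had a median of 2.56. In the same CD31 comparison of Rspo3- cells of the small intestine, 8 rose and 1 fell, with a median of 2.42. The list summed to 2542 to 3734 CPM in CD31+ Rspo3+ libraries and 2459.6 to 3072 CPM in CD31+ Rspo3- libraries.

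The 20 blood endothelial markers gave a mixed picture, with 7 that rose, 2 that fell and 11 that did not pass, and a median of 0.39. Gpihbp1, which carries lipoprotein lipase across capillary walls, had 441, 519 and 654 CPM in CD31+ Rspo3+ cells and 3.76, 8.85 and 4.76 CPM in CD31- Rspo3+ cells (6.54 ± 0.45, adjusted p = 3.19e-09). Cd300lg, an endothelial sialomucin, had 190.4, 202 and 205 CPM in CD31+ Rspo3+ cells, against 3.03, 3 and 1.94 CPM in CD31- Rspo3+ cells (6.22 ± 0.46, adjusted p = 2.34e-09). These were high in all CD31+ Rspo3+ libraries, as was the water channel gene Aqp1. Plvap, the diaphragm protein of fenestrated capillaries, had 75.9, 108 and 114 CPM in CD31+ Rspo3+ cells and 69.8, 73.5 and 115 CPM in CD31- Rspo3+ cells, and did not pass (0.20 ± 0.40, adjusted p = 0.755). Flt1, a VEGF receptor, averaged 8.14 ± 1.63 CPM in CD31+ Rspo3+ cells and 6.76 ± 2.68 CPM in CD31- Rspo3+ cells (adjusted p = 0.741). Vwf, the von Willebrand factor gene, averaged 5.02 ± 2.85 CPM in CD31+ Rspo3+ cells and 3.55 ± 1.03 CPM in CD31- Rspo3+ cells (adjusted p = 0.552). For Plvap, Flt1 and Vwf the groups overlapped. In CD31+ Rspo3- cells these 3 genes were at 9265 ± 1843, 798 ± 186 and 398 ± 131 CPM. Nrp1, a co-receptor for VEGF and semaphorins, fell to 9.96, 20.1 and 20.7 CPM in CD31+ Rspo3+ cells, against 214, 283 and 312 CPM in CD31- Rspo3+ cells (-4.00 ± 0.34, adjusted p = 1.52e-08).

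Transcription factor genes were divided between the fractions. Of 16 endothelial factor genes, 14 rose and 0 fell, with a median of 4.91, and Sox17 and Klf4 did not pass. Nr2f2, the venous and lymphatic factor COUP-TFII, had 209, 147 and 222 CPM in CD31+ Rspo3+ cells, against 18.9, 21.1 and 25.3 CPM in CD31- Rspo3+ cells (3.15 ± 0.23, adjusted p = 2.06e-09). Of 15 mesenchymal factor genes tested, 10 fell and 3 rose, with a median of -3.17. Nkx2-3, a homeobox factor of gut mesenchyme, had 16.2, 20.6 and 16.4 CPM in CD31+ Rspo3+ cells and 182, 175 and 183 CPM in CD31- Rspo3+ cells (-3.34 ± 0.20, adjusted p = 1.33e-10). Foxf1, a forkhead factor of gut mesenchyme under Hedgehog control, averaged 13.1 ± 6.15 CPM in CD31+ Rspo3+ cells and 276 ± 31.9 CPM in CD31- Rspo3+ cells. Meox1, a mesodermal homeobox factor placed in the mesenchymal list, went the other way, with 206, 183 and 217 CPM in CD31+ Rspo3+ cells, against 3.43, 5.74 and 5.64 CPM in CD31- Rspo3+ cells (5.36 ± 0.22, adjusted p = 3.17e-12). Heyl and Meox2 rose with it.

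All 16 pan-fibroblast markers fell, with a median of -5.95. Col1a2 had 172, 269 and 110.5 CPM in CD31+ Rspo3+ cells, against 14464, 14429 and 10155 CPM in CD31- Rspo3+ cells (-6.15 ± 0.62, adjusted p = 1.38e-07). Fbln1, the matrix protein fibulin 1, had 56.3, 90.3 and 80.8 CPM in CD31+ Rspo3+ cells and 5661, 5769 and 6473 CPM in CD31- Rspo3+ cells (-6.30 ± 0.63, adjusted p = 1.04e-07). Pcolce, an enhancer of procollagen processing, had 22.6, 33.9 and 32.5 CPM in CD31+ Rspo3+ cells, against 1677, 1692 and 2041 CPM in CD31- Rspo3+ cells (-5.93 ± 0.48, adjusted p = 7.57e-09). CD31+ Rspo3+ library 2 was the highest of its group for all 3 genes, and no libraries overlapped. The 16 markers summed to 1860.4, 3266 and 2063 CPM in CD31+ Rspo3+ libraries, 1.53% of the mean of CD31- Rspo3+ libraries, which held 153595 to 160726 CPM. None of the 16 was at 0 in a CD31+ Rspo3+ library, and whether these reads came from fibroblasts carried into the gate was not tested.

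Of 16 genes of Pdgfra-low Grem1+ fibroblasts, 14 fell and 2, Cd81 and Dpp4, did not pass (median -5.35). Grem1 (ENSMUSG00000074934, chromosome 2, 113746164 to 113758646) had 8.81, 13.4 and 5.69 CPM in CD31+ Rspo3+ cells and 972, 931 and 749 CPM in CD31- Rspo3+ cells (-6.55 ± 0.80, adjusted p = 1.68e-06). Cd34, a sialomucin of fibroblasts and blood capillaries, had 30.5, 44.6 and 32.5 CPM in CD31+ Rspo3+ cells, against 1509, 1528 and 1697 CPM in CD31- Rspo3+ cells (-5.46 ± 0.28, adjusted p = 3.79e-11). Col15a1, a basement membrane collagen, averaged 2.19 ± 1.36 CPM in CD31+ Rspo3+ cells and 76 ± 11.1 CPM in CD31- Rspo3+ cells (-5.03 ± 0.38, adjusted p = 2.67e-09). The groups lay far apart for all 3. The 14 genes of Pdgfra-high fibroblasts, which line the epithelium, showed 7 falls and 7 that did not pass, with a median of -1.96. Foxl1, a defining factor of these cells, was at or below 1.01 CPM in all 6 libraries, and F3, which encodes tissue factor, averaged 8.63 ± 4.44 CPM in CD31+ Rspo3+ cells and 195 ± 11.6 CPM in CD31- Rspo3+ cells.

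Smooth muscle genes were lower as well, with 11 of 12 falling. Cnn1, the contractile regulator calponin 1, averaged 11.1 ± 1.72 CPM in CD31+ Rspo3+ cells and 122 ± 17.2 CPM in CD31- Rspo3+ cells (-3.46 ± 0.35, adjusted p = 1.13e-07). Smtn, smoothelin, rose, at 725 ± 70.4 CPM in CD31+ Rspo3+ cells, against 189 ± 10.4 CPM in CD31- Rspo3+ cells (1.94 ± 0.17, adjusted p = 1.5e-08). Of 10 pericyte genes, 4 fell and 2 rose. Rgs5, a G protein regulator, averaged 13.7 ± 6.69 CPM in CD31+ Rspo3+ cells and 262 ± 26.4 CPM in CD31- Rspo3+ cells, whereas Kcnj8, an ATP-sensitive potassium channel subunit, averaged 338 ± 24.3 CPM in CD31+ Rspo3+ cells and 30.1 ± 1.05 CPM in CD31- Rspo3+ cells. Cox4i2, a subunit of respiratory chain complexes, also rose, but it lay at or below 0.491 CPM in every library, lost its call in 6 alternatives and was too low to be tested in a fit of the 6 compared libraries alone.

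**Figure D2:**
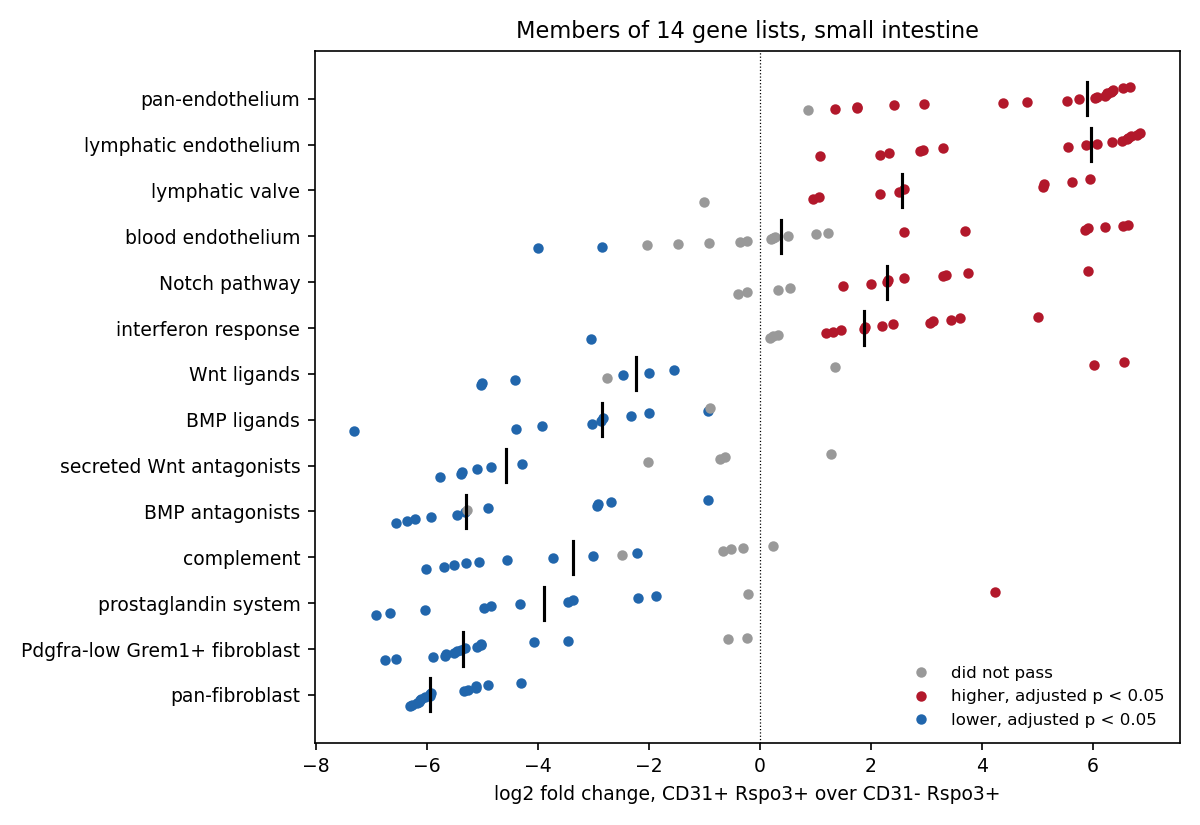
Log2 fold change (CD31+ Rspo3+ over CD31- Rspo3+) of each tested member of 14 gene lists, with red points for higher and blue for lower genes at adjusted p under 0.05, grey for genes that did not pass and a bar at the median. The endothelial lists lie to the right (medians 5.89 and 5.97), the blood endothelial list spreads over both sides and the fibroblast lists lie to the left (medians -5.35 and -5.95). The 14 lists were chosen after their values were seen.

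Both fractions held Rspo3 at overlapping levels, while Rspo1 and Rspo2 were lower in CD31+ Rspo3+ cells. Rspo1 had 0.0459, 0.675 and 1.19 CPM in CD31+ Rspo3+ cells, against 29.4, 26.2 and 33.4 CPM in CD31- Rspo3+ cells (-5.67 ± 1.03, adjusted p = 0.000169). Rspo2 had 2.62, 2.15 and 0 CPM in CD31+ Rspo3+ cells and 70.4, 66.9 and 63.1 CPM in CD31- Rspo3+ cells (-5.32 ± 1.09, adjusted p = 0.000572). Both secreted R-spondins fell with no overlap, and Rspo4 had 0 counts in all 6 libraries. Of the receptors, Lgr4 averaged 11.9 ± 1.83 CPM in CD31+ Rspo3+ cells and 11.9 ± 1.07 CPM in CD31- Rspo3+ cells, and Lgr4, Znrf3 and Rnf43 did not pass. Lgr5, the stem cell receptor, had 6.66, 7.18 and 3.79 CPM in CD31+ Rspo3+ cells, against 1.21, 0.697 and 0.535 CPM in CD31- Rspo3+ cells (2.84 ± 0.89, adjusted p = 0.0163). The call for Lgr5 was lost without CD31- Rspo3+ library 2 (adjusted p = 0.0617) or 3 (adjusted p = 0.0575).

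Among 10 Wnt ligand genes tested, 2 rose and 6 fell, with a median of -2.23. Wnt2, a ligand of the canonical pathway, had 269.7, 238 and 325 CPM in CD31+ Rspo3+ cells and 1.58, 4.34 and 2.92 CPM in CD31- Rspo3+ cells (6.57 ± 0.58, adjusted p = 2.27e-08). Wnt9b had 26.9, 18.7 and 19.1 CPM in CD31+ Rspo3+ cells, against 0, 0.912 and 0.0972 CPM in CD31- Rspo3+ cells (6.03 ± 1.04, adjusted p = 0.000144). Both were high in every CD31+ Rspo3+ library. In TPM, Wnt2 stood at 195 ± 25.5 in CD31+ Rspo3+ cells, close to Rspo3 there. Of the falls, Wnt5b had the smallest adjusted p, at 0.703 ± 0.351 CPM in CD31+ Rspo3+ cells and 21.5 ± 3.15 CPM in CD31- Rspo3+ cells (-5.01 ± 0.73, adjusted p = 1.4e-05). Wnt5a, a ligand of the non-canonical branch, had 3.81, 3.13 and 0.593 CPM in CD31+ Rspo3+ cells, against 61.8, 60.3 and 48.7 CPM in CD31- Rspo3+ cells (-4.42 ± 0.70, adjusted p = 3.59e-05). Wnt2b, another ligand of the canonical pathway, averaged 1.66 ± 1.15 CPM in CD31+ Rspo3+ cells and 55.6 ± 9.13 CPM in CD31- Rspo3+ cells. Wnt9a, Wnt11 and Wnt4 also fell, and the call for Wnt4 was lost in 5 alternatives.

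Of 10 Wnt antagonist genes tested, all but Apcdd1 for secreted proteins, 6 fell, Apcdd1 among them, and 0 rose (median -4.57). Sfrp1, which binds Wnt proteins, had 51.6, 123 and 47.7 CPM in CD31+ Rspo3+ cells, against 3048, 3703 and 2501 CPM in CD31- Rspo3+ cells (-5.38 ± 0.64, adjusted p = 1.16e-06). Dkk3, a Dickkopf relative, had 16.4, 29.8 and 21.5 CPM in CD31+ Rspo3+ cells and 608, 671 and 675 CPM in CD31- Rspo3+ cells (-4.85 ± 0.43, adjusted p = 2.5e-08). Dkk2, a Wnt co-receptor ligand, averaged 2.97 ± 2.08 CPM in CD31+ Rspo3+ cells and 155 ± 17.7 CPM in CD31- Rspo3+ cells (-5.77 ± 0.67, adjusted p = 7.93e-07). The 3 were low in all CD31+ Rspo3+ libraries, and CD31+ Rspo3+ library 2 was the highest of these for Sfrp1 and Dkk3, as for the fibroblast markers.

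BMP ligand and antagonist genes were mostly lower in CD31+ Rspo3+ cells. Of 10 genes in the ligand list, which includes the protease gene Bmp1, 9 fell and Bmp7 did not pass (median -2.85). Bmp4 had 5.32, 14.7 and 8.77 CPM in CD31+ Rspo3+ cells and 185, 199 and 220.2 CPM in CD31- Rspo3+ cells (-4.39 ± 0.43, adjusted p = 8.48e-08). Bmp2 had 5.6, 15.6 and 7.71 CPM in CD31+ Rspo3+ cells, against 142, 161 and 136 CPM in CD31- Rspo3+ cells (-3.92 ± 0.38, adjusted p = 7.9e-08). Bmp1, a protease that processes procollagen and chordin rather than a ligand, averaged 73 ± 11.1 CPM in CD31+ Rspo3+ cells and 519 ± 44 CPM in CD31- Rspo3+ cells. Of 12 antagonists, 11 fell (median -5.29) and Chrdl2 did not pass. Beside Grem1, Chrd, which encodes chordin, averaged 2.01 ± 1.44 CPM in CD31+ Rspo3+ cells and 84.6 ± 8.41 CPM in CD31- Rspo3+ cells (-5.45 ± 0.82, adjusted p = 2.1e-05). Smoc2, a secreted calcium-binding matrix protein, averaged 16.9 ± 8.31 CPM in CD31+ Rspo3+ cells and 671 ± 55.9 CPM in CD31- Rspo3+ cells (-5.31 ± 0.58, adjusted p = 3.61e-07). Fstl1, a follistatin-like protein, averaged 114 ± 6.53 CPM in CD31+ Rspo3+ cells and 734 ± 48.6 CPM in CD31- Rspo3+ cells (-2.69 ± 0.20, adjusted p = 2.73e-09). Among 8 receptor genes, 5 fell and 1 rose. Bmpr1a, a type I receptor, averaged 6.28 ± 3.58 CPM in CD31+ Rspo3+ cells and 149 ± 14.5 CPM in CD31- Rspo3+ cells, and Eng, the endothelial co-receptor endoglin, averaged 213 ± 61.7 CPM in CD31+ Rspo3+ cells and 40.2 ± 4.7 CPM in CD31- Rspo3+ cells. Only 2 receptor genes fell without CD31- Rspo3+ library 3, and 3 without CD31+ Rspo3+ library 3.

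**Figure D3:**
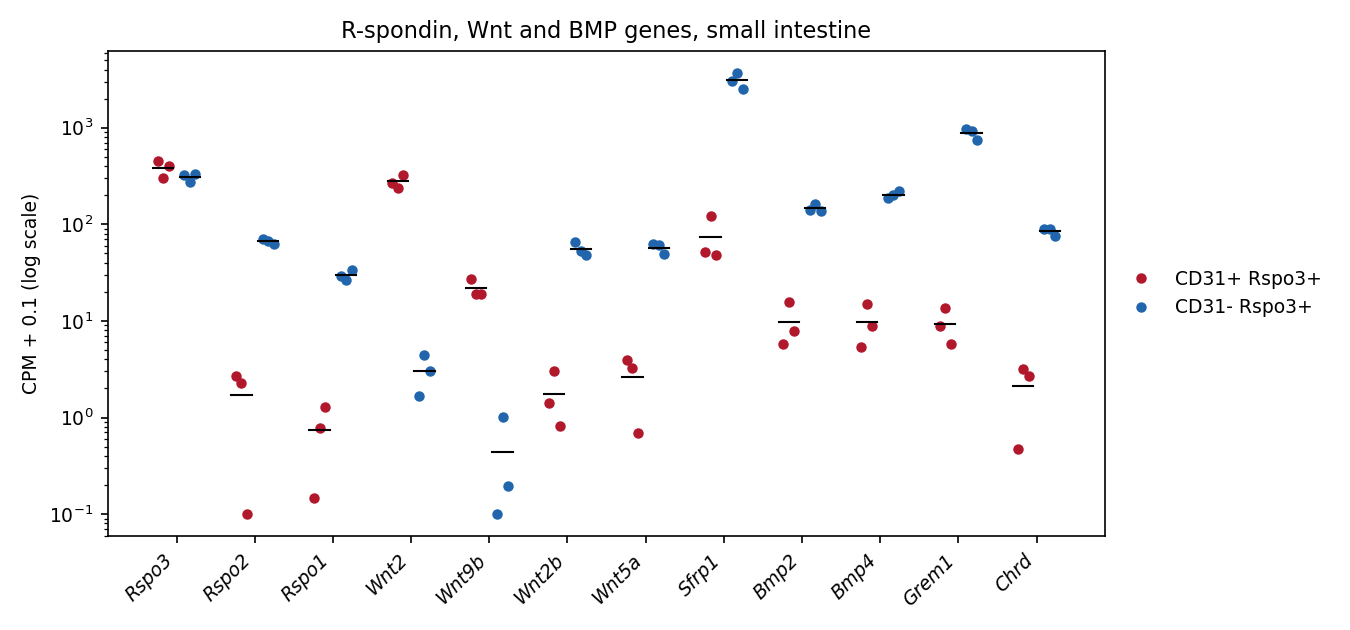
CPM + 0.1 (log scale) of 12 R-spondin, Wnt and BMP pathway genes in the 3 CD31+ Rspo3+ (red) and 3 CD31- Rspo3+ (blue) libraries of the small intestine, with points for libraries and bars for means. Rspo3 lies at overlapping levels, Wnt2 and Wnt9b are higher in CD31+ Rspo3+ cells (log2 fold changes 6.57 and 6.03) and the other 9 genes are lower. The choice of genes to plot was made with their values known.

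Growth factors for epithelium fell in 10 of 15 cases, with 1 rise and a median of -2.07. Igf1, insulin-like growth factor 1, had 5, 10.9 and 9.96 CPM in CD31+ Rspo3+ cells, against 295, 293 and 287 CPM in CD31- Rspo3+ cells (-5.09 ± 0.45, adjusted p = 2.37e-08). Fgf2, a broadly acting fibroblast growth factor, averaged 0.565 ± 0.0239 CPM in CD31+ Rspo3+ cells and 22.2 ± 5.28 CPM in CD31- Rspo3+ cells (-5.29 ± 0.42, adjusted p = 5.3e-09). The rise was Tgfa, an EGF receptor ligand, at 3.46 ± 2.17 CPM in CD31+ Rspo3+ cells and 0.178 ± 0.309 CPM in CD31- Rspo3+ cells (4.22 ± 1.20, adjusted p = 0.00834). Of 13 genes of the TGF-beta system, 4 rose and 7 fell. Tgfb1 averaged 81.6 ± 23 CPM in CD31+ Rspo3+ cells and 10 ± 3.28 CPM in CD31- Rspo3+ cells (3.02 ± 0.32, adjusted p = 1.97e-07), and Ltbp3, a latent TGF-beta binding protein, 74.4 ± 15.6 CPM in CD31+ Rspo3+ cells and 414 ± 68.5 CPM in CD31- Rspo3+ cells (-2.48 ± 0.29, adjusted p = 1.1e-06).

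Ligands and receptors of vessel growth were split between the fractions. Of 8 VEGF and angiopoietin ligands, 4 fell and 2 rose, and of 7 receptors, 5 rose and 1 fell. Vegfd, a ligand of the lymphatic receptor Flt4, had 0.734, 0.981 and 1.78 CPM in CD31+ Rspo3+ cells and 46.5, 46.5 and 50.5 CPM in CD31- Rspo3+ cells (-5.42 ± 0.40, adjusted p = 2.28e-09). Vegfc, the other ligand of Flt4, averaged 2.4 ± 1.73 CPM in CD31+ Rspo3+ cells and 73.9 ± 5.16 CPM in CD31- Rspo3+ cells (-4.89 ± 0.43, adjusted p = 1.97e-08). Flt4 itself had 2029, 2374 and 1262 CPM in CD31+ Rspo3+ cells, against 15.2, 29.8 and 10.1 CPM in CD31- Rspo3+ cells (6.69 ± 0.67, adjusted p = 1.23e-07). The ligand genes were thus high in CD31- Rspo3+ cells and the receptor gene in CD31+ Rspo3+ cells, in every library. Angpt2, an antagonist or weak agonist of the receptor Tek, had 203, 228 and 217 CPM in CD31+ Rspo3+ cells and 1.9, 5.52 and 2.33 CPM in CD31- Rspo3+ cells (6.06 ± 0.35, adjusted p = 1.28e-10). Angpt1, the Tek agonist, averaged 11.8 ± 2.14 CPM in CD31+ Rspo3+ cells and 36.5 ± 3.53 CPM in CD31- Rspo3+ cells. Vegfa and Vegfb did not pass (adjusted p = 0.41 and 0.944). In the PDGF system, Pdgfb averaged 7.54 ± 1.84 CPM in CD31+ Rspo3+ cells and 0.538 ± 0.0935 CPM in CD31- Rspo3+ cells, while Pdgfc averaged 0.238 ± 0.316 CPM in CD31+ Rspo3+ cells and 18.2 ± 0.467 CPM in CD31- Rspo3+ cells. Pdgfra, the receptor of PDGF ligands on fibroblasts, averaged 23.9 ± 11.5 CPM in CD31+ Rspo3+ cells and 714 ± 152 CPM in CD31- Rspo3+ cells.

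Of 13 Notch pathway genes, 9 rose and 0 fell (median 2.29). Dll4, a ligand of endothelial tips and arteries, had 254, 242 and 196 CPM in CD31+ Rspo3+ cells, against 2.38, 5.36 and 3.69 CPM in CD31- Rspo3+ cells (5.92 ± 0.61, adjusted p = 1.52e-07). Notch1, its receptor, had 177, 163 and 82.3 CPM in CD31+ Rspo3+ cells and 11.4, 14.2 and 5.73 CPM in CD31- Rspo3+ cells (3.75 ± 0.41, adjusted p = 4.05e-07). Hey1, a target gene, had 69.1, 61.9 and 70.1 CPM in CD31+ Rspo3+ cells, against 5.41, 6.11 and 8.02 CPM in CD31- Rspo3+ cells (3.36 ± 0.30, adjusted p = 2.45e-08). No libraries overlapped for these genes, whereas Hes1, another target, overlapped at 973 ± 175 CPM in CD31+ Rspo3+ cells and 1152 ± 82.1 CPM in CD31- Rspo3+ cells (adjusted p = 0.443). Hedgehog pathway genes fell in 8 of 9 cases (median -2.59). Smo, the signal transducer, averaged 15.3 ± 0.731 CPM in CD31+ Rspo3+ cells and 91.8 ± 11.5 CPM in CD31- Rspo3+ cells, and Gli1, a target and effector, 1.16 ± 0.836 CPM in CD31+ Rspo3+ cells and 19.7 ± 4.94 CPM in CD31- Rspo3+ cells (-4.02 ± 0.48, adjusted p = 1.19e-06).

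Guidance and junction genes included members on both sides. Of 20 semaphorins, plexins and neuropilins, 11 rose and 5 fell. Sema3f, a repulsive ligand of Nrp2, had 201, 261 and 159.7 CPM in CD31+ Rspo3+ cells and 13.9, 16.3 and 15.6 CPM in CD31- Rspo3+ cells (3.76 ± 0.26, adjusted p = 8.57e-10). Nrp2, the neuropilin of lymphatic and venous vessels, averaged 1029 ± 204 CPM in CD31+ Rspo3+ cells and 105 ± 15.2 CPM in CD31- Rspo3+ cells, the reverse of Nrp1. Of 15 junction genes, 9 rose and 3 fell. Nectin2, an adhesion protein, averaged 619 ± 55.8 CPM in CD31+ Rspo3+ cells and 22.4 ± 4.27 CPM in CD31- Rspo3+ cells (4.79 ± 0.33, adjusted p = 1.04e-09). Jam3, a junctional adhesion molecule, averaged 11.2 ± 0.896 CPM in CD31+ Rspo3+ cells and 129 ± 5.13 CPM in CD31- Rspo3+ cells (-3.53 ± 0.26, adjusted p = 2.35e-09).

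All 12 fibrillar and associated collagens fell (median -5.12). Col3a1, a chain of reticular fibres, had 437, 764 and 309 CPM in CD31+ Rspo3+ cells and 39019, 39569.9 and 27499 CPM in CD31- Rspo3+ cells (-6.13 ± 0.65, adjusted p = 2.37e-07). In TPM, Col3a1 was at 9333 ± 1545 in CD31- Rspo3+ cells, above Col1a2 there at 3254 ± 675. Basement membrane genes were mixed, with 3 rises and 8 falls among 16, beside 16.9% higher and 19.6% lower over all genes tested. Nid2, nidogen 2, had 243, 293 and 176 CPM in CD31+ Rspo3+ cells, against 29, 32.1 and 16.9 CPM in CD31- Rspo3+ cells (3.19 ± 0.31, adjusted p = 7.09e-08). Lama2, a laminin chain of muscle and stroma, had 5.42, 12.2 and 3.32 CPM in CD31+ Rspo3+ cells and 329, 365 and 242 CPM in CD31- Rspo3+ cells (-5.46 ± 0.56, adjusted p = 1.69e-07). For Col3a1, Nid2 and Lama2 alike, CD31- Rspo3+ library 3 was the lowest of its group, and the groups did not overlap. Of 10 matrix proteases, 8 fell and 0 rose, and of 6 inhibitors, 3 fell and 2 rose. Adamts2, a procollagen protease, averaged 13.2 ± 2.08 CPM in CD31+ Rspo3+ cells and 664 ± 44.2 CPM in CD31- Rspo3+ cells (-5.65 ± 0.46, adjusted p = 7.09e-09). Timp3, a matrix-bound inhibitor of metalloproteinases, had 4216, 4656 and 4789 CPM in CD31+ Rspo3+ cells and 363, 395 and 439 CPM in CD31- Rspo3+ cells (3.51 ± 0.22, adjusted p = 2.27e-10).

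Immune mediators differed gene by gene. Of 16 chemokines, 3 rose and 10 fell, beside 16.9% higher and 19.6% lower over all genes tested. Cxcl12, which holds haematopoietic cells and lymphocytes, had 92.3, 106 and 91.6 CPM in CD31+ Rspo3+ cells, against 1561, 1723 and 2112 CPM in CD31- Rspo3+ cells (-4.22 ± 0.36, adjusted p = 1.43e-08). Cxcl16, a membrane-bound chemokine, averaged 18.2 ± 3.82 CPM in CD31+ Rspo3+ cells and 128 ± 16.6 CPM in CD31- Rspo3+ cells. The atypical receptors, which take up chemokines without signaling through G proteins, were divided. Ackr2 had 269, 316 and 296 CPM in CD31+ Rspo3+ cells and 3.11, 10.8 and 4.96 CPM in CD31- Rspo3+ cells (5.55 ± 0.51, adjusted p = 3.6e-08). Ackr3 had 1110.2, 1377 and 1338 CPM in CD31+ Rspo3+ cells, against 164, 159.7 and 123 CPM in CD31- Rspo3+ cells (3.10 ± 0.21, adjusted p = 7.28e-10). Ackr4, which takes up Ccl21 among others, had 11.8, 13.1 and 8.89 CPM in CD31+ Rspo3+ cells and 1385, 1332 and 946 CPM in CD31- Rspo3+ cells (-6.75 ± 0.86, adjusted p = 2.58e-06). Ackr2 and Ackr3 were thus higher in the CD31+ Rspo3+ cells and Ackr4 in the CD31- Rspo3+ cells, with no overlap.

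Of 14 cytokines, 3 rose and 5 fell, beside 16.9% higher and 19.6% lower over all genes tested. Il7, a survival factor for lymphocytes, had 161, 151 and 143 CPM in CD31+ Rspo3+ cells, against 6.79, 9.23 and 7.58 CPM in CD31- Rspo3+ cells (4.27 ± 0.31, adjusted p = 1.58e-09). Il6, an inflammatory cytokine, had 1.97, 6.56 and 8.42 CPM in CD31+ Rspo3+ cells and 307, 286 and 302 CPM in CD31- Rspo3+ cells (-5.76 ± 0.45, adjusted p = 4.23e-09). Tnfsf13b, the B cell survival factor BAFF, averaged 3.28 ± 1.35 CPM in CD31+ Rspo3+ cells and 61.4 ± 3.17 CPM in CD31- Rspo3+ cells (-4.27 ± 0.55, adjusted p = 2.8e-06). Each of these separated the groups. Complement genes fell in 9 of 14 cases, with 0 rises (median -3.37). Serping1, the C1 inhibitor, averaged 558 ± 20.3 CPM in CD31+ Rspo3+ cells and 7402 ± 460.1 CPM in CD31- Rspo3+ cells (-3.73 ± 0.31, adjusted p = 9.41e-09). C1ra, a protease of the first complement component with a close paralog, averaged 60 ± 13.4 CPM in CD31+ Rspo3+ cells and 2019.7 ± 142 CPM in CD31- Rspo3+ cells (-5.07 ± 0.39, adjusted p = 3.12e-09).

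Interferon response genes were higher in CD31+ Rspo3+ cells, with 12 of 16 rising, 1 falling and a median of 1.89. Ifi44 had 166, 197 and 213 CPM in CD31+ Rspo3+ cells, against 5.94, 5.52 and 6.41 CPM in CD31- Rspo3+ cells (5.01 ± 0.28, adjusted p = 8.57e-11). Bst2, the tetherin gene, had 500.4, 491 and 457 CPM in CD31+ Rspo3+ cells and 108, 109.6 and 99.1 CPM in CD31- Rspo3+ cells (2.20 ± 0.17, adjusted p = 2.99e-09). Zbp1, a sensor of nucleic acids, averaged 153 ± 29.8 CPM in CD31+ Rspo3+ cells and 17.5 ± 1.91 CPM in CD31- Rspo3+ cells (3.13 ± 0.25, adjusted p = 5.92e-09). Oas2 fell, to 0.792 ± 0.594 CPM in CD31+ Rspo3+ cells, against 6.97 ± 1.81 CPM in CD31- Rspo3+ cells (-3.05 ± 0.46, adjusted p = 2.27e-05). Of 7 MHC class II genes, 2 rose and 5 did not pass, although no libraries of the groups overlapped for any of them. Ciita, the master regulator of class II transcription, had 7.39, 6.75 and 2.96 CPM in CD31+ Rspo3+ cells and 1.05, 1.13 and 0.535 CPM in CD31- Rspo3+ cells (2.66 ± 0.74, adjusted p = 0.00725). H2-DMb1, a peptide-loading chain with a close paralog, averaged 26.7 ± 2.92 CPM in CD31+ Rspo3+ cells and 9.87 ± 1.89 CPM in CD31- Rspo3+ cells (1.43 ± 0.45, adjusted p = 0.0164). All 7 rose in a fit of the 6 compared libraries alone, and only 1 without CD31- Rspo3+ library 1.

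Of 13 lipid uptake and transport genes, 6 rose and 2 fell. Beside Gpihbp1, Fabp4, a fatty acid carrier, had 599, 530.1 and 427 CPM in CD31+ Rspo3+ cells, against 12.6, 20.1 and 12.2 CPM in CD31- Rspo3+ cells (5.12 ± 0.47, adjusted p = 3.42e-08). Apoe, the lipoprotein ligand, had 53, 132 and 88.6 CPM in CD31+ Rspo3+ cells and 872, 969.9 and 1472 CPM in CD31- Rspo3+ cells (-3.60 ± 0.47, adjusted p = 4.07e-06). In retinoic acid metabolism, 3 of 9 genes rose and 5 fell. Stra6, a receptor for retinol-binding protein, averaged 4.74 ± 0.76 CPM in CD31+ Rspo3+ cells and 0.0135 ± 0.0233 CPM in CD31- Rspo3+ cells, and Aldh1a1, an enzyme that makes retinoic acid, 14.7 ± 3.7 CPM in CD31+ Rspo3+ cells and 372 ± 20 CPM in CD31- Rspo3+ cells. Aldh1a2, another such enzyme, averaged 11.6 ± 5.09 CPM in CD31+ Rspo3+ cells and 228 ± 5.42 CPM in CD31- Rspo3+ cells. Cyp26b1, which breaks retinoic acid down, averaged 139.5 ± 21.8 CPM in CD31+ Rspo3+ cells and 2.46 ± 1.55 CPM in CD31- Rspo3+ cells (5.83 ± 0.93, adjusted p = 4.37e-05). Genes that make retinoic acid were thus high in CD31- Rspo3+ cells and this gene of its breakdown in CD31+ Rspo3+ cells.

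Of 12 prostaglandin genes, 10 fell and 1 rose (median -3.89). Ptger4, a receptor for prostaglandin E2, averaged 1.99 ± 0.215 CPM in CD31+ Rspo3+ cells and 63 ± 8.77 CPM in CD31- Rspo3+ cells (-4.97 ± 0.35, adjusted p = 1.29e-09). Ptger2, another receptor for prostaglandin E2, averaged 94.2 ± 11.5 CPM in CD31+ Rspo3+ cells and 5.04 ± 1.07 CPM in CD31- Rspo3+ cells (4.23 ± 0.46, adjusted p = 3.34e-07). The 2 receptors thus had opposite directions. Among 13 sphingosine and lysophosphatidate genes, 3 rose and 9 fell. Spns2, the exporter of sphingosine 1-phosphate in lymphatic endothelium, had 312, 289 and 234 CPM in CD31+ Rspo3+ cells and 13.2, 23.7 and 15.4 CPM in CD31- Rspo3+ cells (adjusted p = 9.62e-09). S1pr2, one of its receptors, averaged 3.92 ± 1.53 CPM in CD31+ Rspo3+ cells and 105 ± 6.74 CPM in CD31- Rspo3+ cells (-4.76 ± 0.49, adjusted p = 1.48e-07). Enpp2, which encodes the lysophosphatidate-forming enzyme autotaxin, averaged 21.5 ± 3.23 CPM in CD31+ Rspo3+ cells and 300.1 ± 49.6 CPM in CD31- Rspo3+ cells (-3.80 ± 0.34, adjusted p = 2.17e-08). Of 15 nitric oxide, endothelin, apelin and adrenomedullin genes, 6 rose and 5 fell. Nos3, the endothelial nitric oxide synthase, averaged 64.8 ± 9.97 CPM in CD31+ Rspo3+ cells and 1.59 ± 0.776 CPM in CD31- Rspo3+ cells, and Ece1, which activates endothelins, 1451 ± 243 CPM in CD31+ Rspo3+ cells and 179 ± 32.8 CPM in CD31- Rspo3+ cells (3.02 ± 0.18, adjusted p = 2.22e-10).

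Some list members were at like levels. In 22 list members with at least 50 CPM in both groups, the 95% interval of the log2 fold change lay within -1 to 1. Junb, an AP-1 factor, was the closest, at 5495, 6448 and 7535 CPM in CD31+ Rspo3+ cells and 5108, 6540.5 and 7273 CPM in CD31- Rspo3+ cells (0.04, interval -0.42 to 0.50). Others were the AP-1 genes Jun (0.11) and Jund (0.22), the stress genes Dusp1 (0.19) and Ier3 (0.15), the interferon genes Irf1 (0.23) and Oasl2 (0.19), Plin2 (0.16), which coats lipid droplets, Hes1 (-0.24) and Rspo3 (0.31). Rspo3 is the gene behind the reporter gate, and both fractions were sorted as positive for that reporter. Of 16 immediate early and heat shock genes, 2 rose, 3 fell and 11 did not pass, beside 36.5% of all genes that passed. Hsph1, a heat shock protein, averaged 214 ± 85.9 CPM in CD31+ Rspo3+ cells and 78.6 ± 21.3 CPM in CD31- Rspo3+ cells (1.45 ± 0.32, adjusted p = 0.00117). Hspa1a, an inducible heat shock gene with a near-identical copy, had 6196, 1944 and 591 CPM in CD31+ Rspo3+ cells, against 3572, 1729.5 and 1521 CPM in CD31- Rspo3+ cells, so that library 1 was the highest in each group and the groups overlapped. Of 12 cell cycle genes, 7 rose and 0 fell. Mki67, a proliferation marker, had 6.2, 8.71 and 2.49 CPM in CD31+ Rspo3+ cells and 1.09, 0.965 and 1.26 CPM in CD31- Rspo3+ cells (2.39 ± 0.68, adjusted p = 0.00829), and Top2a lost its call without library 1 of either group (adjusted p = 0.056 and 0.0623). Only 3 of the 12 rose without CD31+ Rspo3+ library 1, CD31- Rspo3+ library 1 or CD31- Rspo3+ library 2.

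Epithelial cells and leukocytes are the cells that the Epcam and CD45 gates leave out. Of 14 epithelial genes, Lgr5 alone passed, and their sum was 133 to 296 CPM in CD31+ Rspo3+ libraries and 78.4 to 300.1 CPM in CD31- Rspo3+ libraries. Of 10 leukocyte genes tested, 0 passed in edgeR, also 0 had an unadjusted p under 0.05, and 0 passed in DESeq2 and in limma voom. In a fit of the 6 compared libraries alone 2 fell, Igkc and Jchain. The leukocyte sum was 1694 to 3137 CPM in CD31+ Rspo3+ libraries and 3392 to 5308 CPM in CD31- Rspo3+ libraries. Igkc, an antibody light chain of plasma cells, was at 1270.1, 2361 and 1489 CPM in CD31+ Rspo3+ cells, against 2613, 3383 and 4041 CPM in CD31- Rspo3+ cells (adjusted p = 0.434). Ptprc, which encodes CD45, averaged 5.87 ± 3.97 CPM in CD31+ Rspo3+ cells and 6.28 ± 2.28 CPM in CD31- Rspo3+ cells. Glia, neurons, interstitial cells of Cajal and mesothelial cells are not removed by these gates. Of 8 enteric glia genes, 1 fell, Scn7a, at 9.45 ± 3.4 CPM in CD31+ Rspo3+ cells and 328 ± 99.6 CPM in CD31- Rspo3+ cells, while Sox10, a defining factor of glia, stayed at or below 1.59 CPM in all 6 libraries. Of 8 enteric neuron genes 1 rose, Stmn2, and 1 fell, Nos1. Of 5 genes of interstitial cells of Cajal 2 rose, Gja1 and Prkcq, and 2 fell, Etv1 and Ano1, while Kit did not pass (adjusted p = 0.0902). Of 6 mesothelial genes, 0 passed in edgeR, 1 had an unadjusted p under 0.05, 1 passed in DESeq2 and 0 in limma voom. Of 5 erythroid genes, 0 passed in edgeR, DESeq2 or limma voom and 0 had an unadjusted p under 0.05. Of 4 platelet genes, 1 fell, Itga2b.

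The same CD31 comparison in reporter-negative cells of the small intestine called 7932 genes (41.6%). The CD31 difference itself differed between Rspo3+ and Rspo3- cells for 4620 genes (24.3%), of which 2117 were more positive and 2503 more negative in Rspo3+ cells. This balance turned in DESeq2 (2661 more positive and 2522 more negative), with DESeq2 size factors (2350 and 2212) and with no filter (1916 and 1915). It also turned without CD31+ Rspo3+ library 2 (2155 and 1902), CD31- Rspo3+ library 3 (2262 and 1758) or CD31+ Rspo3- library 3 (2236 and 2184). Of the genes higher in CD31+ Rspo3+ cells, 1757 were also higher in CD31+ Rspo3- cells (54.7% of the Rspo3+ list and 46% of the Rspo3- list), and 581 genes passed in opposite directions. Of the 20 blood endothelial genes, 17 were more negative and 1 more positive in Rspo3+ cells, with a median difference of -6.68. Over all genes tested, 13.1% were more negative and 11.1% more positive. Cd34 had 30.5, 44.6 and 32.5 CPM in CD31+ Rspo3+ cells and 1509, 1528 and 1697 CPM in CD31- Rspo3+ cells, but 597, 661 and 532 CPM in CD31+ Rspo3- cells and 355, 369 and 266 CPM in CD31- Rspo3- cells. The CD31 difference of Cd34 was -5.46 ± 0.28 in Rspo3+ and 0.85 ± 0.23 in Rspo3- cells, a difference of -6.31 ± 0.36 (adjusted p = 1.09e-09). Ly6c1, a surface protein of blood capillaries, was at 16.4 ± 6.44 CPM in CD31+ Rspo3+ cells and 119 ± 34.8 CPM in CD31- Rspo3+ cells, against 2017 ± 636 CPM in CD31+ Rspo3- cells and 22 ± 3.29 CPM in CD31- Rspo3- cells. Swap70, Sparcl1 and Ly6a also changed sign, being lower in CD31+ than CD31- cells with the reporter and higher without it. Ly6c1 and Ly6a belong to a family of close copies, so their counts are uncertain. Epithelial markers summed to 7204 to 14728 CPM in CD31- Rspo3- libraries, against 133 to 759.7 CPM in the CD31+ Rspo3+ and CD31+ Rspo3- libraries, and their part in these differences was not tested.

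In the colon, CD31+ Rspo3+ and CD31- Rspo3+ cells differed in 6314 genes (33.1%). Of the genes higher in CD31+ Rspo3+ cells of the small intestine, 2091 were higher in the colon too (65.1% of the small intestinal list and 73.7% of the colonic one), 2499 lower genes were shared (66.8% and 71.9%), and 68 genes passed in opposite directions. The size of the CD31 difference differed between the tissues for 604 genes (3.17%), 330 more positive and 274 more negative in the small intestine. A fit of the compared libraries alone gave the opposite balance, with 300 more positive and 354 more negative. Tle4, a Groucho corepressor, had 66.7, 67.8 and 63.2 CPM in CD31+ Rspo3+ cells and 7.84, 9.65 and 10.5 CPM in CD31- Rspo3+ cells of the small intestine. In the colon, Tle4 had 50.5, 36.5 and 41.1 CPM in CD31+ Rspo3+ and 35.3, 32 and 37.2 CPM in CD31- Rspo3+ cells. Its groups were therefore far apart in the small intestine and close in the colon, a difference of 2.52 ± 0.21 (adjusted p = 2.65e-06). Nedd9, a docking protein of integrin signaling, went likewise, with CD31 differences of 3.34 ± 0.23 in the small intestine and 0.17 ± 0.21 in the colon. Hmcn1, a matrix fibulin, was higher in CD31+ cells of both tissues, by 1.24 ± 0.20 in the small intestine and 4.61 ± 0.24 in the colon. Enpp3, a nucleotide-cleaving ectoenzyme, was lower in CD31+ cells of the small intestine (-2.15 ± 0.23) and higher in those of the colon (1.05 ± 0.22). Capg, an actin-capping protein, differed by -3.20 ± 0.20 in the small intestine and -0.50 ± 0.18 in the colon.

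Wnt2, described above, belonged to these 604 genes. In the colon it had 14.4, 19.4 and 13.2 CPM in CD31+ Rspo3+ cells and 7.71, 11.7 and 7.15 CPM in CD31- Rspo3+ cells, so that its colonic CD31 difference was 0.82 ± 0.47 (adjusted p = 0.196). The difference between the tissues was 5.75 ± 0.70 (adjusted p = 0.000102). Rspo3 was higher in colonic CD31+ Rspo3+ cells at 373 ± 30.9 CPM, against 213 ± 66.4 CPM in colonic CD31- Rspo3+ cells (0.81 ± 0.22, adjusted p = 0.00698), but its CD31 difference was not shown to differ between the tissues (-0.50 ± 0.31, adjusted p = 0.462). Compared with the colon, 7 of 16 immediate early and heat shock genes had a more positive CD31 difference in the small intestine. Over all genes tested this share was 1.73%. In the small intestine 2 of the 16 rose and 3 fell. In the colon 0 rose and 13 fell, beside 18.2% of all genes lower there. Colonic CD31- Rspo3+ library 3 stood apart in leukocyte genes, which summed to 29712 CPM there, against at most 1522 CPM in the other 2 libraries of its group. Without it 530 genes differed between the tissues, and the part of leukocyte RNA in these differences was not tested. The number of such genes was 402 without small intestinal CD31- Rspo3+ library 3, 390 without colonic CD31+ Rspo3+ library 3 and 382 without colonic CD31- Rspo3+ library 1.

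**Figure D4:**
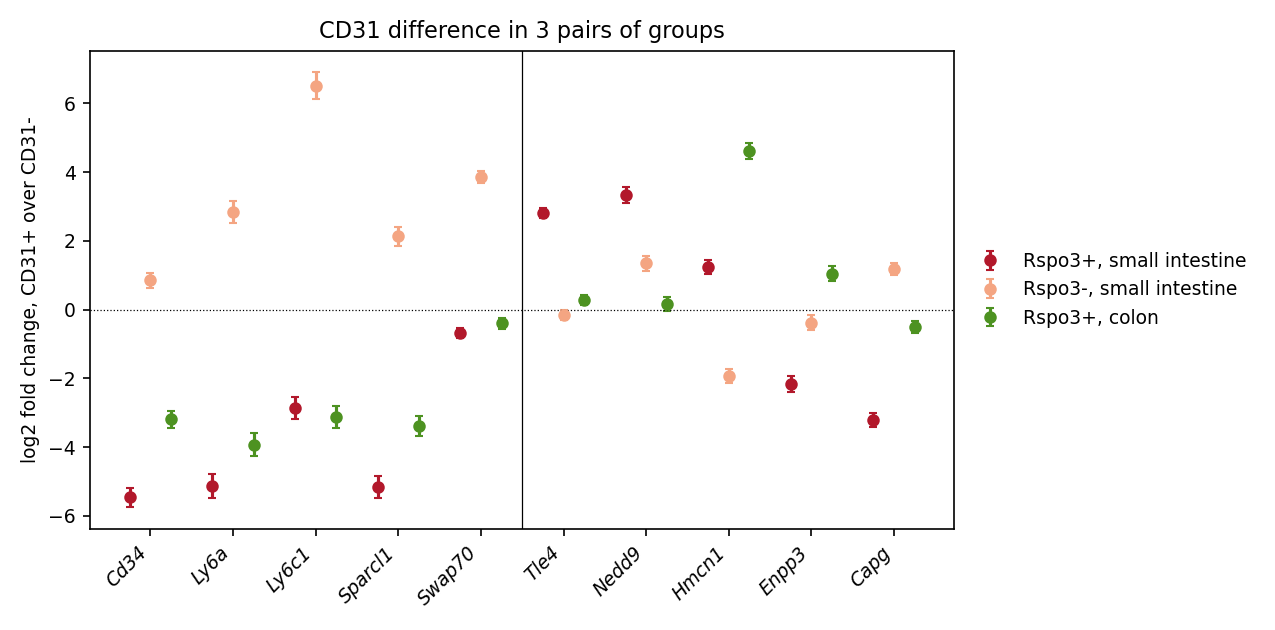
Log2 fold change of CD31+ over CD31- cells for 10 genes in Rspo3+ cells of the small intestine (red), Rspo3- cells of the small intestine (light orange) and Rspo3+ cells of the colon (green), with bars for 1 SE of the fit of all 24 libraries. Left of the line, 5 genes with the smallest adjusted p for a difference from Rspo3- cells are below 0 in Rspo3+ and above 0 in Rspo3- cells of the small intestine, and right of it, 5 genes with the smallest adjusted p for a difference from the colon include Enpp3, which changes sign.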

How the data were processed

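RNA from fractions of mouse intestinal stroma was sequenced in 8 groups of 3 libraries, and 6 of the 24 libraries carry the comparison described here. Per the labels' protocols, an RNeasy kit and SMART-Seq v4, a full-length chemistry without strand information, were used. The tools were Salmon 1.3.0 and R 4.0.1 with genome build mm10, per the submitters' processing notes. The step from transcripts to genes is not given in the sources used here. Estimated counts were deposited as whole numbers and were used as they are. The authors also deposited log2(TPM + 1) values, a form read from their totals, and TPM was taken back from them.

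Columns were matched to groups by the signs in their names. They carry no replicate numbers, so library numbers only follow column order. Of 54418 gene IDs, 54166 (99.5%) were found in the GENCODE annotation of GRCm38. Counts were tested with edgeR 4.0.16 (R 4.3.3), using TMM scaling, filterByExpr (minimum count 10, minimum total 15), 1 mean per group over all 24 libraries and the quasi-likelihood F test, with p-values adjusted by Benjamini and Hochberg over the 19050 genes tested. The fit had 3.5 prior degrees of freedom and a common biological coefficient of variation of 0.429. The SE was taken back from the test, as the absolute log2 fold change over the square root of its F value. The 95% intervals of log2 fold changes were built from this SE. Counts were simulated for all 24 libraries from mean levels in the 6 compared ones, with 200 of the 17335 genes tested changed. Of the 2-fold changes 19% were recovered, and of the 4-fold changes 57%. The real comparison called a far larger share of genes (36.5%), and recovery at such a share was not simulated. Alternatives were DESeq2 1.42.0, its size factors within edgeR, limma voom (limma 3.58.1), no filter, only the libraries compared, and each library left out in turn. Ratios on few counts used a floor of 3 counts over the group or a 95% interval, which cover counting error only.

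The genes named were Pecam1, Rspo3, Grem1, the 10 largest rises and falls without overlap among genes that reached 10 CPM in a group, 3 members per list (smallest adjusted p) and 1 that went the other way, the 5 leading genes of each interaction, and the 10 closest list members with at least 50 CPM in both groups. The comparison, the 49 lists and this rule were chosen with earlier results of these data known. A few genes picked by the rule are not reported here. Promoter sequences came from RefSeq (GRCm38.p6).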

Additional observations from a re-analysis of the deposited data

Results flagged for a closer look

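The CD31 difference differed between Rspo3+ and Rspo3- cells of the small intestine for 4620 genes in the interaction test of edgeR. The 5 leading genes among those of at least 10 CPM were more negative in Rspo3+ cells. The difference between the log2 fold changes was -6.31 ± 0.36 for Cd34 (adjusted p = 1.09e-09) and -4.52 ± 0.22 for Swap70, whose CD31 difference was -0.67 in Rspo3+ and 3.85 in Rspo3- cells (adjusted p = 2.99e-10). For Ly6c1 it was -9.37 ± 0.50, from CD31 differences of -2.85 in Rspo3+ and 6.52 in Rspo3- cells (adjusted p = 5.09e-10). Sparcl1 gave -7.28 ± 0.42 (-5.15 in Rspo3+ and 2.13 in Rspo3- cells) and Ly6a gave -7.98 ± 0.47 (-5.14 in Rspo3+ and 2.85 in Rspo3- cells), both at adjusted p = 1.49e-09. The part of the epithelial RNA seen in CD31- Rspo3- libraries in these values was not tested.

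Between small intestine and colon, the CD31 difference of Rspo3+ cells differed for 604 genes. The difference was 2.52 ± 0.21 for Tle4 (adjusted p = 2.65e-06) and -3.37 ± 0.30 for Hmcn1 (adjusted p = 4.65e-06). It was 3.17 ± 0.31 for Nedd9, -3.20 ± 0.32 for Enpp3 and -2.70 ± 0.26 for Capg, each at adjusted p = 9.29e-06. In colonic CD31- Rspo3+ library 3 the 16 pan-fibroblast markers summed to 65911 CPM, against 115479 and 118060.2 CPM in the other libraries of its group, and without that library 322 genes were more positive and 208 more negative in the small intestine.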

How the results depend on the processing

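No named gene that passed changed sign under the alternatives, but the balance of higher and lower calls turned in 4 of the 5 comparisons, as given beside 3 of them; in the colon it turned with only the compared libraries (2943 higher and 2751 lower). The number of genes that differed between CD31+ Rspo3+ and CD31- Rspo3+ cells of the small intestine ran from 6009 with no filter to 7426 in DESeq2, and from 6012 to 6499 with a library left out. The median log2 fold change of all genes lay between -0.047 and 0.091. The number of genes whose CD31 difference differed between the tissues was 1123 in DESeq2 (620 more positive and 503 more negative in the small intestine). With a library left out it ran from 382 to 648, with 212 to 408 more positive and 151 to 240 more negative, and the cause was not tested. Leaving out libraries of the colon or of the Rspo3- fractions was chosen after seeing the data. Of 2089 values of single named genes under alternatives, 2065 kept their direction and side of the threshold, 14 newly passed and 10 no longer passed, and 163 of 175 named genes kept theirs throughout. No paired analysis was possible because the columns carry no replicate number of the labels, and a replicate block by column order would rest on no label. Most simulated 2-fold changes were missed at the depth and number of libraries used here, so a gene that did not pass may differ. Whether depth sets this was not tested, and the simulation changed a far smaller share of genes than passed here. Of 81 genes called in the simulated data, 6.17% were false.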
